A study of Trachemys scripta elegans with 3 samples.

Results

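The liver of red-eared sliders (Trachemys scripta elegans) held for 30 days at 15 psu was compared with the liver of sliders held in fresh water, unigene by unigene. The members were the unigenes whose best protein match came from a turtle of the genera Chrysemys, Chelonia, Pelodiscus or Trachemys, or from Alligator, and that had FPKM of at least 5 in both libraries. FPKM counts sequenced fragments relative to the length of the unigene and the size of the library, so the levels of different unigenes can be set side by side. The rule kept 7424 unigenes of the 205118 analysed in the deposited table, out of 31658 with such a match at any level. They carried 48.1% of the summed FPKM at 0 psu and 50.2% at 15 psu. The painted turtle genus Chrysemys gave the best match for 6121 members and the sea turtle genus Chelonia for 870. Pelodiscus was the best match of 223, Alligator of 195 and Trachemys itself of 15.

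The study divided 9 turtles, 2 years old and weighing 424 to 478 g, between fresh water (0 psu, the control), 5 psu and 15 psu. All were fed a commercial diet in tanks of their salinity. After a 24 h fast and cold anaesthesia of 0.5 to 1 h, the livers of the 3 turtles of a group were mixed, and 1 library was sequenced per salinity. With 1 pooled library per salinity there were no replicates, so no value below has an error, no difference was tested, and the spread between turtles is not known. In bulk tissue, a lower level of a transcript cannot be told apart from a smaller number of the cells that make it.

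The liver makes most of the plasma proteins, among them albumin, fibrinogen, complement, the apolipoproteins and the acute phase proteins whose synthesis changes in inflammation. It also releases glucose during fasting, turns amino acid nitrogen into urea and handles lipids, bile acids and foreign compounds. Reptiles in salt water face loss of water and gain of salt, and urea, taurine, betaine and other small organic solutes are known to serve as osmolytes in many vertebrates.

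The 7424 members had 6580 different protein descriptions, and 5212 of them carried 1 of 4138 KEGG gene names. Differences are given as the log2 ratio of FPKM at 15 psu to FPKM at 0 psu after adding 0.1 to each value, and a 2-fold difference (a log2 value of 1 or more in size) was counted as a change in level. The median over the members was 0.04. The middle part of the distribution, from the lower to the upper quartile, ran from -0.14 to 0.23, and 5% of members lay below -0.59 and 5% above 0.61. A 2-fold difference in either direction was found for 256 members (3.45%), of which 106 (1.43%) were higher at 15 psu and 150 (2.02%) lower. A 1.5-fold difference was passed upward by 414 members (5.58%) and downward by 374 (5.04%), and 56.1% lay above 0. Among all 10582 unigenes at the same FPKM minimum, whatever their annotation, the shares were 4.96% past 2-fold, with 1.97% higher and 3% lower, 7.12% and 6.46% past 1.5-fold upward and downward, and 54.5% above 0. The main beta-actin unigene itself was higher at 15 psu, with FPKM of 2495 in fresh water and 2907 at 15 psu. Set relative to beta-actin, every log2 value shifts by -0.22, which leaves 64 members at least 2-fold higher and puts 237 at least 2-fold lower, so that 21.3% rather than 41.4% of the changed members lie on the higher side.

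No member with FPKM under 10 in its higher library could pass 2-fold, since the rule asks for 5 in the other. From 10 to under 20 the share past 2-fold was 3.43% of 2303 members, and from 20 to under 50 it was 6.24% of 1650. It was 5.2% of the 596 members from 50 to under 100, 6.82% of the 484 from 100 to under 500, and 6.49% of the 154 with FPKM of 500 or more. The same minimum also removed the largest differences of weak unigenes, so these shares cannot be compared between levels.

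**Figure D1:**
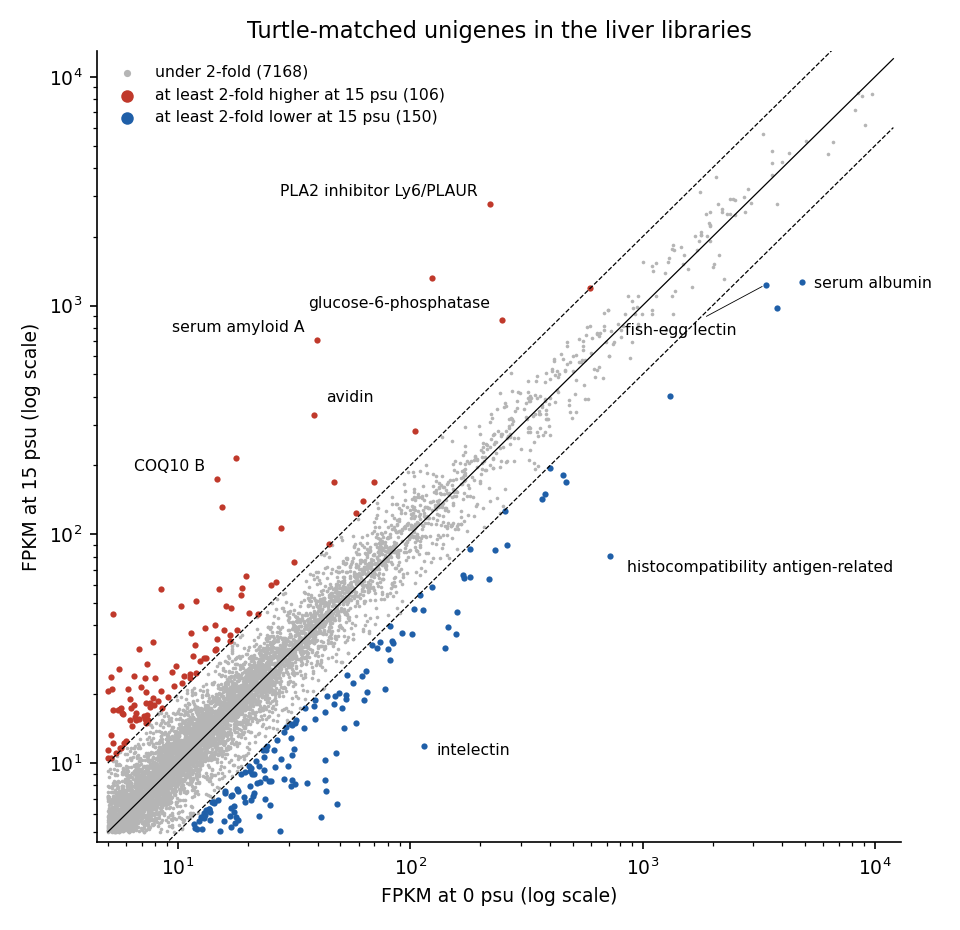
FPKM at 15 psu (y axis) against FPKM at 0 psu (x axis), both on log scales, for the 7424 turtle-matched unigenes, 1 point each. The solid line marks equal levels and the dashed lines a 2-fold difference. The 106 red points lie above the upper dashed line and the 150 blue points below the lower one.

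The gene furthest up at 15 psu was serum amyloid A (c106996_g1), an acute phase apolipoprotein that the liver secretes in inflammation. Its FPKM was 39.6 in fresh water, 78.01 at 5 psu and 706 at 15 psu, a 17.8-fold difference between 0 and 15 psu and a log2 value of 4.15. A phospholipase A2 inhibitor with a Ly6/PLAUR domain (c118858_g2) had FPKM of 221, 783 and 2782.5 in the same order, a log2 value of 3.65. Proteins of this kind circulate in the blood of snakes, where they bind venom phospholipases. At 15 psu this unigene had more FPKM than either serum albumin unigene. The mitochondrial coenzyme Q-binding protein COQ10 homolog B (c108401_g1), which the respiratory chain needs to use its lipid electron carrier, had FPKM of 14.8, 71.8 and 175, a log2 value of 3.55. An avidin-like unigene (c119197_g2), named for the biotin-binding egg protein, was at 38.5, 42.0 and 334, a log2 value of 3.11. The avidin-like unigene was near its fresh water level at 5 psu, whereas the other 3 were already higher there. Other avidin-like members did not pass 2-fold. From fresh water to 15 psu, c119197_g1 went from 13.45 to 24.53, a log2 value of 0.86, and c108071_g2 from 9.78 to 9.81.

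The other large rises were at lower levels. F-box/LRR-repeat protein 13 (c116707_g2) had FPKM of 15.5 in fresh water and 131 at 15 psu, a log2 value of 3.07. F-box proteins pick substrates for ubiquitin ligases, and a second one, F-box/LRR-repeat protein 8 (c122076_g4), was at 6.79 and 31.5. CD276 antigen-like (c112225_g1), of a family of immune checkpoint ligands, was at 8.50 and 58.0, a log2 value of 2.76. The salt-inducible kinase SIK1 (c121806_g3), which regulates gluconeogenic transcription and, in mammalian cells, the sodium pump, was at 5.58, 13.1 and 25.7, a log2 value of 2.18. The sodium-coupled neutral amino acid transporter 4 (c116881_g5), a carrier of the liver cell membrane, was at 7.84, 5.61 and 33.8, a log2 value of 2.09. The transcription factor CCAAT/enhancer-binding protein beta (c88523_g1), a regulator of acute phase and gluconeogenic genes, was at 27.7, 40.9 and 107, a log2 value of 1.95. Zinc finger protein 585A-like, zinc finger protein 79, a Fli-1 like protein, a class II histocompatibility alpha chain and an EGF-like module-containing receptor made up the rest of the 15 largest rises, with log2 values from 1.87 to 2.19. Of the 15, 8 had FPKM under 10 at 0 psu.

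When only genes reaching an FPKM of 100 in 1 of the compared libraries were ranked, the next rises were a scavenger receptor cysteine-rich protein (c102403_g1), glucose-6-phosphatase and apolipoprotein A-V. The scavenger receptor cysteine-rich protein, of a family of secreted pattern-binding proteins, had FPKM of 46.8 in fresh water, 41.5 at 5 psu and 170 at 15 psu. Its KEGG name, DMBT1, was shared by 7 described members, this one included. All lay above their 0 psu level, beside 56.1% of all members, with log2 values from 0.12 to 1.86. Relative to beta-actin the lowest of these turns negative. An uncharacterized protein (c119968_g1) with the KEGG name PRF1 reached a level above all of these but 1: its FPKM was 125 in fresh water, 155 at 5 psu and 1324 at 15 psu. Another unigene with the same description and KEGG name (c108526_g1) went the other way, with a log2 value of -1.73.

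**Figure D2:**
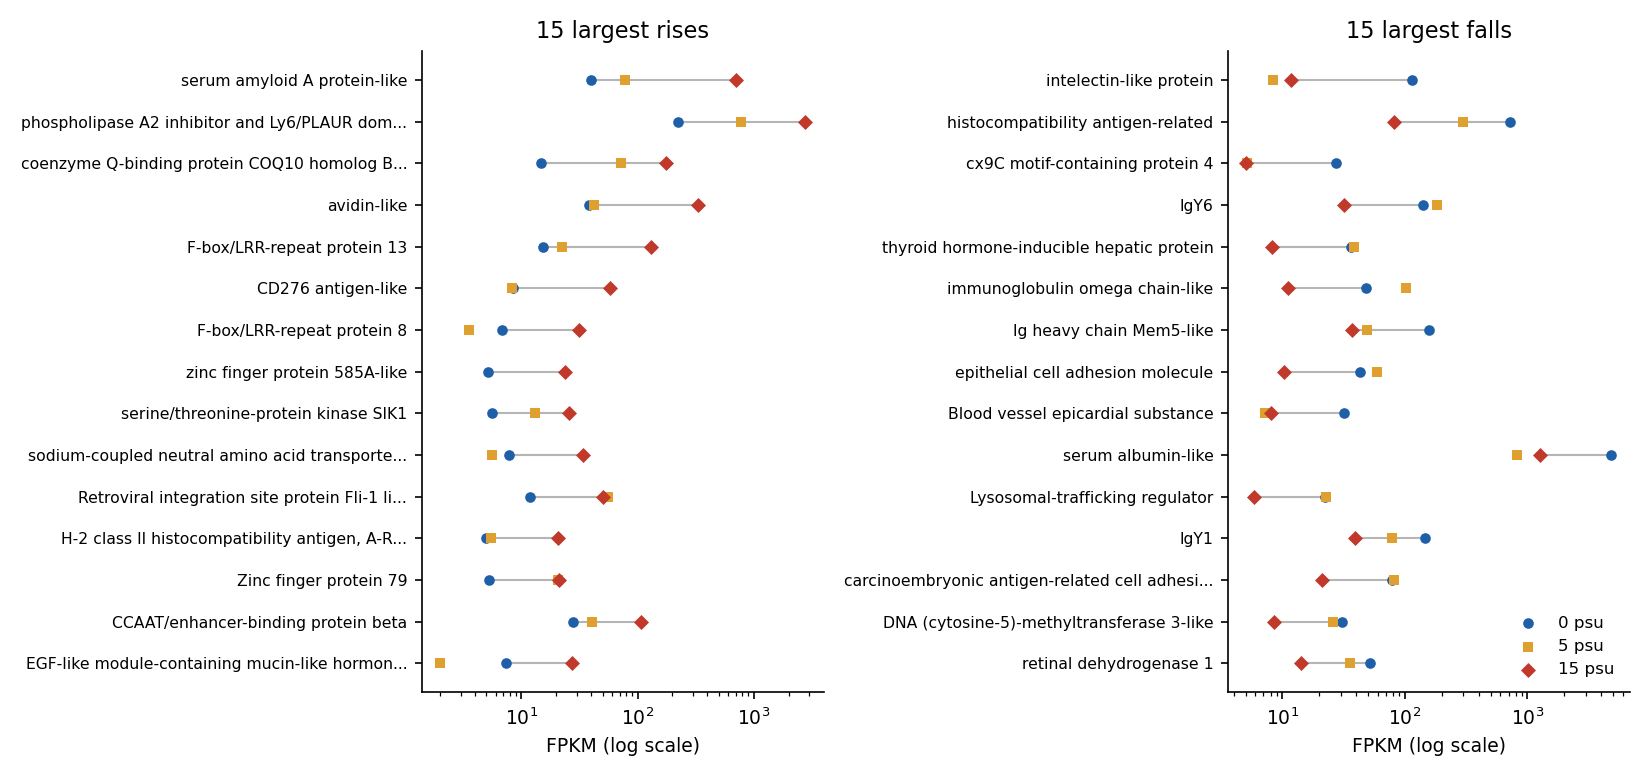
FPKM (x axis, log scale) of the 15 described genes with the largest rises and the 15 with the largest falls, each in the libraries of 0 psu (blue circles), 5 psu (orange squares) and 15 psu (red diamonds). A grey line joins 0 and 15 psu. A gene listed at 0 at 5 psu has no square, and the 5 psu value lies outside the span from 0 to 15 psu for several genes.

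The largest fall was that of an intelectin-like protein (c109352_g1), a lectin that binds microbial sugars. Its FPKM was 114 in fresh water, 8.42 at 5 psu and 11.8 at 15 psu, so that it was 9.67-fold lower at 15 psu. A histocompatibility antigen-related protein (c111795_g1) was at 725, 295 and 80.7, a log2 value of -3.17. The thyroid hormone-inducible hepatic protein (c106410_g1), which promotes fat synthesis in mammalian liver, was at 36.1, 38.4 and 8.19, a log2 value of -2.13. Epithelial cell adhesion molecule (c112777_g1), a marker of bile duct cells in the liver, was at 43.1, 58.7 and 10.3, a log2 value of -2.05. These 2 were lower at 15 psu only, with the 5 psu library at or above the fresh water level, whereas intelectin was low at both salinities.

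The unigenes with the most transcript among the falls were plasma proteins and lectins. Serum albumin, the main protein of plasma, was represented by c111797_g1 with FPKM of 4846 in fresh water, 824 at 5 psu and 1268 at 15 psu, and by c111797_g2 with 3791, 694 and 978. Both were lower by nearly the same log2 value, -1.93 and -1.95. A further albumin member (c124852_g1) was at 9.81, 12.5 and 19.6, a log2 value of 0.99. A fish-egg lectin-like unigene (c116256_g2), of a family of carbohydrate-binding plasma and egg proteins, had FPKM of 3391, 3578 and 1236, and a second (c116256_g1) had 1308, 1508 and 403. Their log2 values were -1.46 and -1.70, and neither was below its fresh water level at 5 psu. Retinal dehydrogenase 1 (c98941_g1), which makes retinoic acid, was at 51.9, 35.9 and 14.3, a log2 value of -1.85. Among the other 15 largest falls were 4 immunoglobulin chains, described with the immune genes, and cx9C motif-containing protein 4, the blood vessel epicardial substance, the lysosomal-trafficking regulator, a carcinoembryonic antigen-related adhesion molecule and a DNA methyltransferase 3-like protein, with log2 values from -2.42 to -1.86.

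For the gene groups, 24 lists of 276 entries were used, each a gene or a whole gene family searched by description. Of the entries 223 had at least 1 member. Over the 539 member unigenes on the lists, 14 (2.60%) were at least 2-fold higher and 25 (4.64%) at least 2-fold lower, beside 1.43% and 2.02% of all members. In 10 lists no unigene passed 2-fold. List medians are described beside the median of all members, 0.04, and a shift to beta-actin lowers all of them by 0.22. That shift turns the medians of 10 lists from above to below 0, namely gluconeogenesis, glycolysis, osmolytes, ion pumps, coagulation, heat shock proteins, respiratory chain, ribosomal proteins, proteasome and glucocorticoid response. Scaling to the members' median or upper quartile turns those of glycolysis and proteasome alone.

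Of the 7 glucose output members 1 passed 2-fold, beside 3.45% of all members. Glucose-6-phosphatase (c119704_g2), which releases free glucose in the last step of gluconeogenesis and glycogen breakdown, had FPKM of 249 in fresh water, 514 at 5 psu and 862 at 15 psu, a 3.46-fold difference and a log2 value of 1.79. The other 6 members of the list lay between -0.24 for mitochondrial phosphoenolpyruvate carboxykinase (944 at 0 psu and 798 at 15 psu) and 0.36 for pyruvate carboxylase (13.2 and 17.0). Fructose-1,6-bisphosphatase 1 was at 636 and 761. Of the 10 glycolysis members none passed 1.5-fold, and their median was 0.01. The enzyme that opens glycolysis in the liver, glucokinase (c121000_g1), fell outside the rule with FPKM of 10.7 in fresh water, 10.04 at 5 psu and 2.79 at 15 psu.

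Transcripts of all 5 urea cycle enzymes were lower at 15 psu, 2 of them by at least 2-fold (40%, beside 2.02% of all members). These 5 were set apart from their list after the values were seen. Ornithine carbamoyltransferase (c106494_g1), which forms citrulline, had FPKM of 104 in fresh water, 112 at 5 psu and 47.1 at 15 psu, a log2 value of -1.15. Argininosuccinate synthase (c99414_g1), the next enzyme, was at 180, 113 and 86.3, a log2 value of -1.06. Argininosuccinate lyase (c109941_g1) was at 144, 104.8 and 81.3, a log2 value of -0.83, and it stopped short of 2-fold. Carbamoyl-phosphate synthase, which brings in ammonia, and arginase-1, which releases urea, were lower by smaller amounts, with log2 values of -0.55 and -0.46. Summed over the 5 enzymes, FPKM was 1047 in fresh water, 839 at 5 psu and 646 at 15 psu. The 2 glutamate dehydrogenase unigenes, which free ammonia from glutamate, had log2 values of -0.51 and -0.47. N-acetylglutamate synthase (c123243_g1), which makes the activator of the first enzyme, went the other way, from 156 at 0 psu to 209 at 15 psu, a log2 value of 0.43. Over the 12 unigenes of the list 2 were at least 2-fold lower and none was at least 2-fold higher. The share above 0 was 16.7%, beside 56.1% of all members, and the median of -0.46 was the lowest of the 24 lists. The sign of each of these enzymes was kept relative to beta-actin except for glutamine synthetase (c118586_g1), whose log2 value of 0.07 turns negative.

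**Figure D3:**
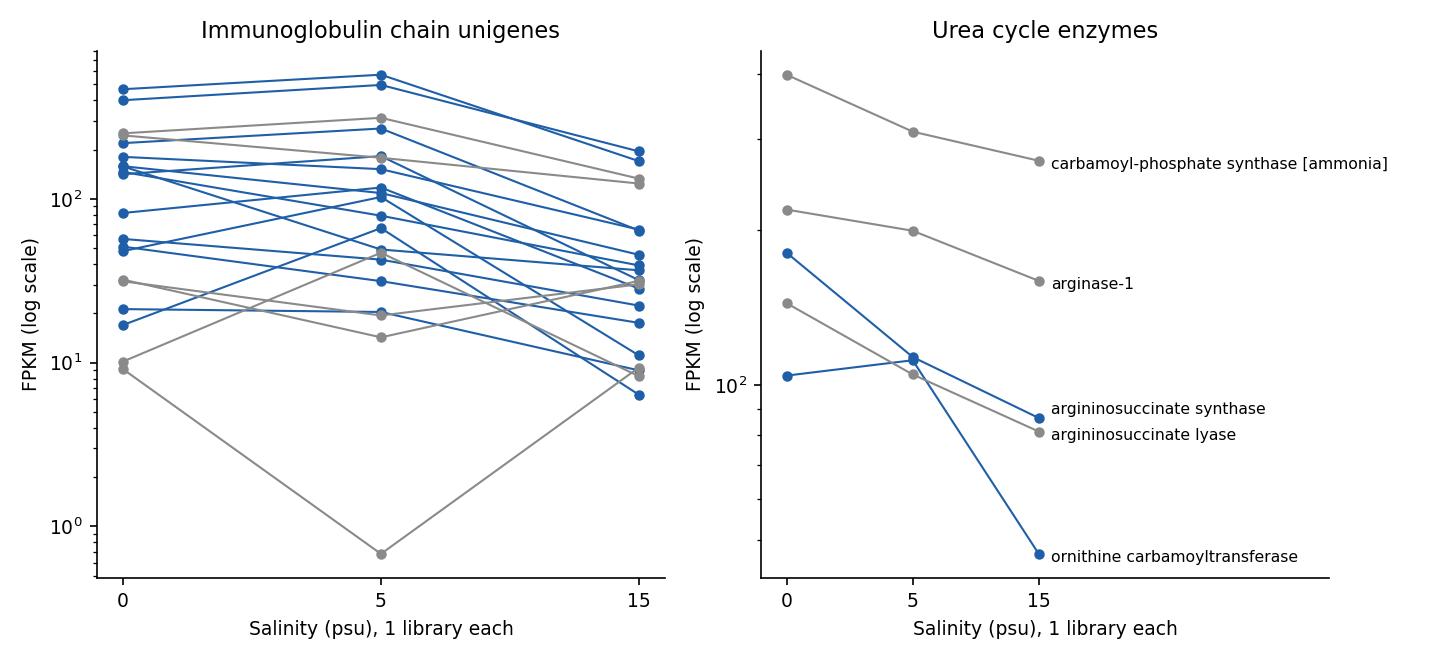
FPKM (y axis, log scale) at 0, 5 and 15 psu for the 20 immunoglobulin chain unigenes (left) and the 5 urea cycle enzymes (right), 1 line each, with 1 library per salinity. Blue lines are at least 2-fold lower at 15 psu than at 0 psu (14 immunoglobulin chains and 2 enzymes) and grey lines are not.

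Enzymes of amino acid breakdown had a median of -0.22 over 23 unigenes. Of these, 1 was at least 2-fold higher and 1 at least 2-fold lower, beside 1.43% and 2.02% of all members. Tyrosine aminotransferase (c108456_g1), the first step of tyrosine breakdown and a classic glucocorticoid-induced enzyme in mammals, had FPKM of 20.5 in fresh water, 6.35 at 5 psu and 7.93 at 15 psu, a log2 value of -1.36. The later enzymes of the same pathway were lower by less: 4-hydroxyphenylpyruvate dioxygenase by -0.29, the 2 unigenes of homogentisate 1,2-dioxygenase by -0.32 and -0.22, and fumarylacetoacetase by -0.46. Alanine aminotransferase 1 had 2 unigenes that parted. The weaker (c119699_g1) was at 11.4, 38.6 and 37.1, a log2 value of 1.70, while the stronger (c121762_g1) was at 138, 86.5 and 137. Summed over both, the log2 value was 0.22.

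Organic osmolyte genes showed no common direction. Their 14 unigenes had a median of 0.06, and none passed 2-fold. The lowest was betaine-homocysteine S-methyltransferase 1 (c104063_g1), the enzyme that uses up betaine, with FPKM of 147 in fresh water, 102 at 5 psu and 78.8 at 15 psu, a log2 value of -0.90. Cysteine sulfinic acid decarboxylase, which makes the precursor of taurine, was at 13.96 and 8.70. On the higher side were inositol-3-phosphate synthase 1 (c117334_g1), which makes inositol, at 8.78 and 13.7, and the salt-responsive kinase Sgk1 (c88132_g2) at 9.50 and 16.6, log2 values of 0.64 and 0.80. The carriers of taurine, myo-inositol and betaine had log2 values of 0.07, -0.15 and -0.20. Of the tonicity-responsive genes outside the rule, the transcription factor NFAT5 was at 3.88 and 5.05 and the amino acid carrier SLC38A2 at 2.28 and 5.62, named as on the list.

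The ion pump list had 1 unigene of 11 past 2-fold, the kinase SIK1, beside 3.45% of all members. The alpha-1 subunit of the sodium pump (c110726_g1), its catalytic part, had FPKM of 30.2 in fresh water, 29.4 at 5 psu and 43.4 at 15 psu, a log2 value of 0.52. The beta-3 subunit (c101653_g1) was at 14.1, 17.1 and 22.3, a log2 value of 0.66, and the beta-1 subunit at 6.49, 4.38 and 6.71. The water channels aquaporin-9, which also carries glycerol and urea, and aquaporin-1 were slightly lower, with log2 values of -0.38 and -0.32. Neither the pump subunits nor the channels reached 2-fold.

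Apart from serum amyloid A, the acute phase list showed no common direction. Of the 30 unigenes of the list, serum amyloid A included, 13 lay above 0 (43.3%, beside 56.1% of all members). Their median was -0.08. The list was not split into proteins that rise and proteins that fall in inflammation, so an acute phase response was not tested. The 3 fibrinogen chains, the clot-forming protein, were lower, with log2 values of -0.35 for alpha, -0.44 for beta and -0.44 for gamma. Gamma had FPKM of 3787 in fresh water, 2442 at 5 psu and 2787 at 15 psu. Hepcidin (c105111_g1), the hormone that holds iron back and is raised by inflammation in mammals, was at 580, 370 and 391.8, a log2 value of -0.57. Hemopexin, which binds free heme, was at 593 and 812, and 1 alpha-2-macroglobulin unigene (c89210_g1) was at 273 and 510. Serum amyloid A was thus the 1 member of this list at least 2-fold higher, and the 2 albumin unigenes were the only ones at least 2-fold lower.

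Complement genes on the list were mostly a little higher. Of the 33 unigenes of the list 27 lay above 0, which is 81.8% beside 56.1% of all members. The median was 0.26, and none on the list passed 2-fold. Relative to beta-actin the median was 0.04. The highest was complement C2 (c119270_g1), a protease of the classical pathway, with FPKM of 243 in fresh water, 326.5 at 5 psu and 416 at 15 psu, a log2 value of 0.78. Complement C6, a part of the membrane attack complex, was at 118 and 185. Complement C3, the hub of the cascade, was at 2116 and 2768 for its main unigene, a log2 value of 0.39. The lowest was 1 of 2 C1s unigenes (c123108_g3) at 53.8 and 30.2, while the other (c88806_g1) was at 237 and 353. The list did not hold all complement genes, and some outside it passed 2-fold. A venom factor-like unigene (c115693_g2) with the KEGG name C3 had a log2 value of 1.26. A complement receptor type 1-like unigene (c120301_g3) had 1.02 and a type 2-like unigene (c122034_g1) -1.44.

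The coagulation list had a median of 0.05 over 24 unigenes. A coagulation factor XIII B chain-like unigene (c104628_g2) was at 62.8, 76.1 and 140, a log2 value of 1.16, which falls to 0.94 relative to beta-actin. Angiotensinogen (c111287_g1), the precursor of the angiotensins that control blood pressure and salt retention, was at 324, 332 and 211, a log2 value of -0.62.

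Of the 20 unigenes of the apolipoprotein list 2 passed 2-fold, both higher, beside 1.43% of all members. Apolipoprotein A-IV (c109540_g2) had FPKM of 104 in fresh water, 162 at 5 psu and 284 at 15 psu, a log2 value of 1.44, and apolipoprotein A-V (c121846_g1), which promotes the clearance of plasma triglyceride, was at 69.6, 115 and 169, a log2 value of 1.28. A second and stronger apolipoprotein A-IV unigene (c98843_g1) was at 462, 488 and 515. Summed over the unigenes of that description, the log2 value was 0.50. The apolipoproteins with most transcript were near equal or lower: A-II at 8224 and 7144, A-I at 2751 and 2569, C-III at 2008 and 1472, and E at 567 and 390. The list median was -0.07 over 20 unigenes.

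Fat synthesis and storage genes had a median of -0.05 over 18 unigenes. Of these, 1 was at least 2-fold higher and 2 at least 2-fold lower, beside 1.43% and 2.02% of all members. Perilipin-2 (c112643_g2), the coat protein of lipid droplets, had FPKM of 31.5 in fresh water, 45.2 at 5 psu and 76.0 at 15 psu, a log2 value of 1.27. Liver fatty acid-binding protein was lower in both unigenes, from 68.2 to 32.9 (c197655_g1) and from 342 to 204 (c71623_g1). Fatty acid synthase was at 6.50 and 7.56 and acetyl-CoA carboxylase 1 at 10.2 and 15.7, in the same 2 libraries. Lipoprotein lipase (c122187_g1), not on the lists, was at 8.46, 7.16 and 20.6. The 11 unigenes of fatty acid oxidation and ketogenesis lay between -0.46 and 0.33, none past 1.5-fold. All 7 unigenes of the cholesterol synthesis and uptake list lay above 0, beside 56.1% of all members. Their median was 0.40, or 0.18 relative to beta-actin, but the list did not hold all members of the pathway. Delta(14)-sterol reductase (c114665_g1), a sterol synthesis enzyme not on the list, was at 24.6 in fresh water, 24.1 at 5 psu and 8.32 at 15 psu, a log2 value of -1.55. The low-density lipoprotein receptor was at 15.97 and 28.0 and the insulin-induced gene 1 protein, which restrains sterol synthesis, at 14.5 and 25.3. A further 8 genes of this list were under FPKM of 5 in at least 1 library, some of them lower at 15 psu, such as isopentenyl-diphosphate Delta-isomerase 1 (c106862_g2) at 6.34 and 3.55, so the list was seen only in part.

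Folding factors of the endoplasmic reticulum, which prepare secreted proteins, lay above 0 in 13 of 13 unigenes, beside 56.1% of all members. Their median was 0.37, or 0.15 relative to beta-actin. The 78 kDa glucose-regulated protein (c113187_g1), the main chaperone of the compartment, had FPKM of 273 in fresh water, 357 at 5 psu and 424 at 15 psu, a log2 value of 0.63. The X-box-binding protein 1, a transcription factor of the unfolded protein response, was at 39.7, 50.8 and 60.5, and protein disulfide-isomerase A6 at 36.5, 48.8 and 54.6. Stromal cell-derived factor 2-like protein 1 had the largest difference, from 7.5 to 14.9. The heat shock proteins of the cytosol and mitochondria differed less, with a median of 0.05 over 8 unigenes and none past 1.5-fold.

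Ribosomal proteins, respiratory chain and proteasome subunits, made in every cell, had 2 unigenes past 2-fold. Both were among the 38 ribosomal ones, beside 3.45% of all members past 2-fold. Of 38 cytosolic ribosomal protein unigenes 34 lay above 0 (89.5%, beside 56.1% of all members). Their median of 0.20 becomes -0.02 relative to beta-actin. Ribosomal protein L39 (c100781_g2) was at 593, 834 and 1189, a log2 value of 1.00 that drops below 2-fold under rescaling, and L22-like 1 (c102488_g1) was at 6.08 and 21.0. The 71 nuclear respiratory chain unigenes had a median of 0.13 and the 35 proteasome unigenes 0.03. None of these passed 2-fold.

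Of the 31 cytochrome P450 unigenes, enzymes that oxidise steroids and foreign compounds, 23 lay below 0. The share above 0 was 25.8%, beside 56.1% of all members. The list median was -0.33, or -0.55 relative to beta-actin. Over all 64 P450 unigenes above 0 in both libraries the median was -0.0090. A 2H2-like unigene (c122014_g3) was furthest down, with FPKM of 380 in fresh water, 177 at 5 psu and 150 at 15 psu, a log2 value of -1.34. The other 2H2-like unigenes were lower by less, and summed over all of them the log2 value was -0.66. In the antioxidant list the median was -0.00038. Heme oxygenase 1 (c115924_g1), which breaks down heme, was at 102, 132 and 187, a log2 value of 0.87. Catalase was at 124 and 91.8, and the catalytic subunit of glutamate-cysteine ligase, which starts glutathione synthesis, at 11.4 and 6.52. Outside the list, a glutathione S-transferase-like unigene (c106820_g1) was at 369, 150 and 143, a log2 value of -1.37.

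**Figure D4:**
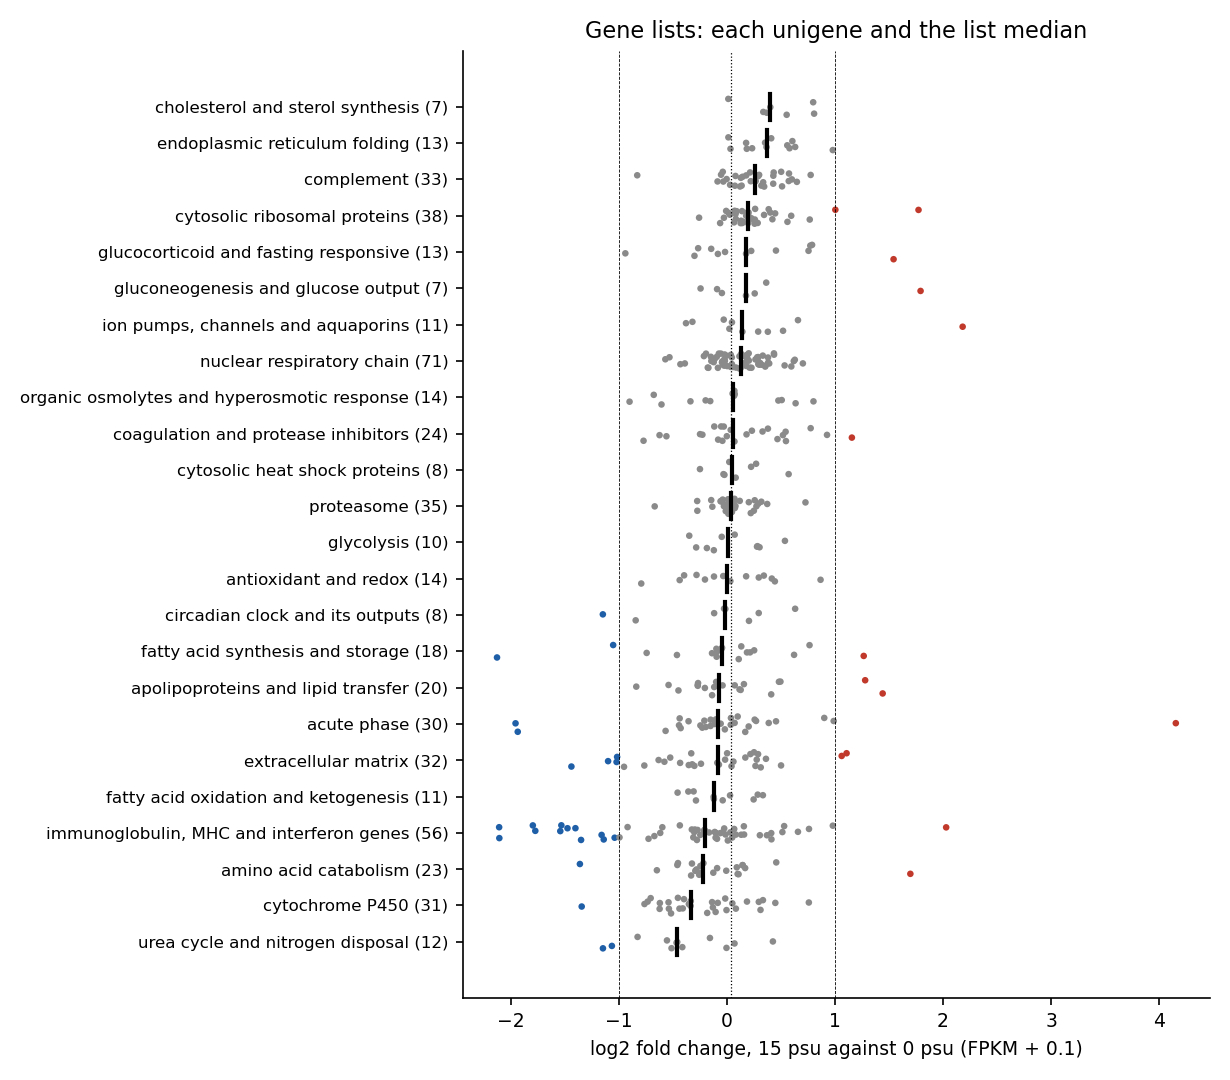
Log2 fold change at 15 psu against 0 psu (x axis, after adding 0.1 to FPKM) of each member unigene of the 24 gene lists (1 point each, number of unigenes in brackets), ordered by the list median (black bar). Dashed lines mark 2-fold and the dotted line the median of all 7424 members, 0.04. The medians run from -0.46 for the urea cycle to 0.40 for sterol synthesis, and relative to beta-actin all of them shift by -0.22, which turns the sign of 10.

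Among genes that respond to glucocorticoids and fasting, Krueppel-like factor 15 (c105171_g1), a regulator of amino acid use and gluconeogenesis, had FPKM of 8.01 in fresh water, 11.2 at 5 psu and 23.5 at 15 psu, a log2 value of 1.54. The glucocorticoid-induced genes TSC22 domain family protein 3 (c102426_g1) and FKBP5 (c116744_g2) were at 56.7 and 98.1 and at 28.1 and 47.5. The glucocorticoid receptor itself was at 13.6 and 12.3, and insulin-like growth factor-binding protein 1 at 37.5 and 51.4. Tribbles homolog 1 was lower, at 11.7 and 6.04. Of the 13 unigenes of this list 7 lay above 0 (53.8%, beside 56.1% of all members). Their median was 0.18, which becomes -0.04 relative to beta-actin. Of the clock genes, class E basic helix-loop-helix protein 40 (c113272_g5), a transcriptional repressor, was at 12.9, 9.92 and 5.78, a log2 value of -1.15, and the 7 other unigenes stayed under 2-fold.

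Other regulators of liver transcription were among the changed members, named after their values were seen. Hepatocyte nuclear factor 4-alpha (c117824_g1), a transcription factor that maintains liver cell identity, had FPKM of 18.6 in fresh water, 14.8 at 5 psu and 8.98 at 15 psu, a log2 value of -1.04. Summed over its 2 unigenes at any FPKM, the log2 value was -0.97. Hepatocyte nuclear factor 3-gamma (c120055_g3) was at 11.9, 13.2 and 24.8. The nuclear receptor subfamily 0 group B member 2 (c115084_g1), a repressor of bile acid synthesis, was at 71.96, 51.8 and 32.0. Hypoxia-inducible factor 1-alpha (c115558_g6) was at 16.8, 40.1 and 34.3. Suppressor of cytokine signaling 3-like (c115453_g1), tristetraprolin (c120773_g1) and ribonuclease ZC3H12A (c120764_g1), which all limit inflammatory signalling, were at 10.6 and 24.0, at 22.2 and 44.7, and at 6.62 and 16.6. A second and more abundant tristetraprolin unigene (c102611_g1) was at 50.2 and 97.1, a log2 value of 0.95, and did not pass 2-fold. Under all 3 scalings hypoxia-inducible factor 1-alpha and tristetraprolin c120773_g1 dropped below 2-fold. Hepatocyte nuclear factor 3-gamma did so under the upper quartile and beta-actin, at 0.83 for the latter. Suppressor of cytokine signaling 3-like did so relative to beta-actin, at 0.95.

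Many immunoglobulin chains were lower at 15 psu. The list of immunoglobulin, histocompatibility and interferon genes had 56 unigenes. Of these, 12 were at least 2-fold lower and 1 at least 2-fold higher, beside 2.02% and 1.43% of all members. Since the search pattern of that list left out the reptile antibody names, descriptions that name an immunoglobulin chain were gathered after the values were seen. Of these 20 unigenes 14 were at least 2-fold lower (70%, beside 2.02% of all members) and none was higher. Their median was -1.43, and 19 lay below 0. A unigene described as a V-set and immunoglobulin domain-containing protein (c113668_g1), with the heavy chain KEGG name but not in this set, was at 11.3, 22.2 and 15.9, a log2 value of 0.50. For the 20 unigenes the summed FPKM was 2726 in fresh water, 2863 at 5 psu and 1078 at 15 psu, so that the sum at 5 psu was not below that of fresh water. IgY(delta Fc)3 (c122510_g2), a truncated heavy chain of the antibody class that reptiles use in place of IgG, was at 467, 573 and 170, a log2 value of -1.46. IgY6 (c122510_g3) was at 142, 182 and 31.9, a log2 value of -2.15. The J chain (c108586_g1), which joins antibody units and is made by antibody-secreting cells, was at 181, 152 and 64.9, a log2 value of -1.47. The antibody sum was low at 15 psu alone, but single chains differed in their 5 psu level, from 17.0 at 0 psu to 66.3 for an iota chain-like unigene (c105769_g1) and from 158 to 49.1 for a Mem5-like heavy chain (c119518_g1).

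Markers of lymphocytes were lower in the same comparison. The B cell receptor chains CD79A and CD79B had FPKM of 12.04 and 12.4 at 0 psu and of 4.60 and 5.61 at 15 psu. With the J chain, the sum over these 3 B cell markers was 205 in fresh water, 170 at 5 psu and 75.2 at 15 psu, and none was at 0. Of 3 T cell markers 2 were found: CD3E with 92.1, 25.6 and 24.0 and CD8A with 13.8, 12.9 and 3.65, summed over their unigenes. All 5 of these markers were lower at 15 psu, and their part in the immunoglobulin result was not tested.

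Class I histocompatibility unigenes, which present peptides to T cells, were gathered by description after the values were seen. Of these 12 members 10 lay below 0. The share above 0 was 16.7%, beside 56.1% of all members. Their median was -0.38, and the histocompatibility antigen-related unigene was the lowest. Their summed FPKM was 1388 in fresh water and 597 at 15 psu. Most of that difference came from the histocompatibility antigen-related unigene, at 725 and 80.7. The class I KEGG name MHC1 joined 14 described unigenes, not all of them in this set. For that name, log2 values ran from -3.17 to 0.57, and summed FPKM was 2566 in fresh water and 1757 at 15 psu. Of class I unigenes outside the rule, c123188_g5, c123188_g2 and c86778_g1 were listed at 0 in fresh water. At 15 psu they were at 73.0, 54.8 and 38.2. They were taken from the most abundant unigenes with FPKM of at least 5 at 15 psu only, so that choice fixed their direction. The directions of all class I unigenes outside the rule were not counted. One class I unigene (c111296_g1) was at 260 in fresh water, 0.05 at 5 psu and 210 at 15 psu, and closely related copies of this family can share reads, so single unigenes are uncertain. The 12 class II unigenes, gathered in the same way, had a median of 0.11. Their summed FPKM was 2396 in fresh water and 2267 at 15 psu. The interferon alpha-inducible protein 6-like unigene (c105687_g1) was at 92.5, 113 and 36.9, a log2 value of -1.32. Stromal cell-derived factor 1 (c120190_g2), the chemokine that keeps lymphocytes and stem cells in tissues, was at 111, 56.0 and 54.1.

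Matrix genes had a median of -0.08 over 32 unigenes. Of these, 4 were at least 2-fold lower and 2 higher, beside 2.02% and 1.43% of all members. The alpha-2 chain of type I collagen (c118274_g3), the fibre collagen of scar and connective tissue, had FPKM of 31.5 in fresh water, 16.1 at 5 psu and 11.6 at 15 psu, a log2 value of -1.44. The type III collagen chain was at 11.2 and 5.74 and decorin, which coats collagen fibres, at 43.2 and 25.4, both short of 2-fold. SPARC, a matrix-binding protein, was at 23.3 and 11.4. Of the 32 matrix unigenes 14 lay above 0 (43.8%, beside 56.1% of all members). Laminin alpha-5 (c124807_g1), of basement membranes, was higher, at 5.00 and 10.6.

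The labelled tissue was checked on marker lists for the cells of a liver. All 7 hepatocyte markers were present in each library and all were lower at 15 psu. Their sum was 14544 at 0 psu and 7363 at 15 psu, which followed albumin, and without it the other 6 summed to 5897 in fresh water, 5209 at 5 psu and 5097 at 15 psu. The 7 macrophage markers summed to 1610 at 0 psu and 1683 at 15 psu, although 5 of them were lower, and C1QA, at 767 and 882, made up much of the sum. The 5 endothelial markers summed to 75.4 and 89.4, with 1 of them lower. The 4 bile duct markers were all lower at 15 psu, with sums of 67.0 in fresh water, 71.8 at 5 psu and 23.2 at 15 psu. EPCAM, at 43.1, 58.7 and 10.3, made up much of the sum, and KRT7, KRT19 and SOX9 were each highest in fresh water. The 5 cardiac muscle markers that were found summed to 80.2 in fresh water, 7.15 at 5 psu and 8.81 at 15 psu, and 2 of them, NPPA and MYL7, were listed at 0 at 15 psu. The markers of stellate cells and fibroblasts summed to 96.2 in fresh water, 77.4 at 5 psu and 54.5 at 15 psu, with 3 of the 4 found lower and PDGFRB at 7.01 and 7.16. The sums of heart, matrix and bile duct markers were thus highest in fresh water or at 5 psu. The part of these cell types in the lower levels of albumin, collagens and the blood vessel epicardial substance was not tested.

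Unigenes were also grouped by description and by KEGG name, and both can join related genes of a family rather than pieces of 1 gene. Of 465 described proteins with several members, 63 had log2 values at least 1 unit apart, and the median span was 0.26. In 7 of them 1 unigene was at least 2-fold higher and another at least 2-fold lower. Among them were B-cell receptor CD22-like, IgGFc-binding protein-like, Kelch-like protein 2, tripartite motif-containing protein 15-like and the phospholipase A2 inhibitor with the Ly6/PLAUR domain. In the phospholipase A2 inhibitor, c118858_g2 and c118858_g3 were higher, the latter at 15.1 and 57.6, and c118327_g3 was lower, at 15.97 and 7.39. With FPKM summed over each of the 4138 KEGG names, 37 names were at least 2-fold higher and 40 at least 2-fold lower. Among the names with 3 or more described unigenes that passed 2-fold, the immunoglobulin heavy chain (IGH, 7 unigenes) went from 1046 to 404 and the surrogate light chain name VPREB (4 unigenes) from 432 to 190. The checkpoint ligand B7H3 (4 unigenes) went from 36.8 to 95.8.

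Of 34 genes that the study singled out from these libraries, 6 were members. Serum amyloid A, the COQ10 homolog, SIK1, tyrosine aminotransferase and argininosuccinate synthase passed 2-fold, and a SIK2 unigene (c123793_g3) was at 11.1 and 13.6. As they were chosen on these libraries, their FPKM is no independent evidence of their direction, and measurements of them by other assays were not used here. The other 28 genes did not meet the rule, 12 of the 34 having no turtle or alligator match.

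The rule shapes what could be seen. Just inside it, the class II alpha chain was kept with FPKM of 5.00 in fresh water and 20.7 at 15 psu, and junctophilin-1 with 5.00 and 5.50. Just outside were DENN domain-containing protein 2D with 7.03 and 4.99 and THAP domain-containing protein 3 with 4.99 and 5.55. A further 1472 turtle-matched unigenes reached FPKM of 5 at 0 psu only and 1426 at 15 psu only, and 784 and 641 of these were listed at 0 in the other library. The cholesteryl ester transfer protein (CETP, c116263_g2), which moves lipid between lipoproteins, was such a case, at 28.5 in fresh water, 6.89 at 5 psu and 3.74 at 15 psu.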

How the data were processed

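Livers of red-eared sliders were sequenced as 1 pooled library per salinity. According to the methods, the authors assembled the reads de novo with Trinity into unigenes. The labels name Bowtie and RSEM, and the authors deposited FPKM per unigene to 2 decimals, together with the NR best match and KEGG name. No genome coordinates or sequences were used here. The values are used as deposited, with no scaling between libraries described. The labels write the salinities as 0%, 5% and 15%, and psu follows the growth protocol. Lines of the table with no content, 20 in all, were not analysed. Some items are not reported here.

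Unigenes were kept by NR genus and FPKM of at least 5 at 0 and 15 psu. Log2 fold changes used a pseudocount of 0.1, which slightly understates the differences of low unigenes. For fold values the FPKM ratio was taken. A 2-fold difference was counted without a test, because each salinity has 1 library. Read counts per unigene were not used, so the number of reads behind a value is unknown and no interval was computed. The total reads per library that the paper lists were not used either. Among weak unigenes found in both libraries (average FPKM between 0.3 and 1), log2 ratios of 15 to 0 psu peaked at -0.01. FPKM is already scaled to library size, so this peak is only an indirect sign of near equal relative depth. A short unigene can reach FPKM of 5 with few reads, and 38 members were listed at 0 at 5 psu.

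Named genes were, after taking the most abundant unigene per description among 6265 described genes, the 15 largest rises and falls, the 10 largest of each among genes with FPKM of at least 100, examples of each list, the study's genes that were members, and descriptions whose unigenes went in different directions. The members and lists were chosen with earlier results of these data known, and genes said to be named after their values were seen are additional. Alternatives were other pseudocounts, 3 scalings, other FPKM minimums, the closest genera only, and 1 or summed unigenes per description. Python 3.11.15, numpy 2.4.6, pandas 2.3.3 and matplotlib 3.10.9 were used, and the counting step was tested on simulated data.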

Additional observations from a re-analysis of the deposited data

Results flagged for a closer look

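Some signal at 15 psu lay outside the members and above the fresh water level. Unigenes whose best match is a rat or mouse protein numbered 1011, and 569 of them were above 0 at 15 psu beside 96 at 0 psu. Their summed FPKM was 1187 in fresh water, 2479 at 5 psu and 2773 at 15 psu.

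Among described turtle-matched unigenes with FPKM under 5 at 0 psu, 3 had the highest levels at 15 psu. That choice fixed their direction. Of the unigenes reaching FPKM of 5 at 15 psu only, 905 were at least 2-fold higher there. Of those reaching it at 0 psu only, 1061 were at least 2-fold lower at 15 psu. A zinc finger protein RFP-like unigene (c113399_g2) of the latter was at 140 in fresh water, 74.9 at 5 psu and 0 at 15 psu. Tapasin-related protein (c108319_g2), which edits the peptides loaded on class I molecules, was at 2.79 in fresh water, 23.7 at 5 psu and 378.8 at 15 psu. A NYNRIN-like unigene (c120471_g4) was at 1.54, 20.5 and 73.5. A class I histocompatibility F10 alpha chain-like unigene (c123188_g5) was at 73.0 at 15 psu and listed at 0 in both other libraries.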

How the results depend on the processing

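No paired analysis was possible because each salinity has 1 library, and no library could be left out. The number of members at least 2-fold higher, 106, and lower, 150, depended on the level asked for. It was 49 and 78 of 4451 unigenes when both libraries had to reach an FPKM of 10, 512 and 581 of 14764 when they had to reach 1, and 1542 and 1876 of 21233 with any value above 0. The larger counts come with more unigenes tested at low values. Relative to beta-actin it was 64 and 237, and with FPKM summed per description 99 were lower and 73 higher, of 6580. The other alternatives stayed within 1.5 times. Of 264 list medians under the alternatives, 263 moved by less than 0.28, the spread of the members' log2 values. The exception was cytochrome P450, with a median of -0.0090 over 64 unigenes above 0. The scalings to the members' median, upper quartile and beta-actin could not pass this limit. They shift every list median by about -0.04, -0.05 and -0.22. Relative to beta-actin, 10 list medians changed sign without passing it. The count of 263 is therefore no evidence that list medians near 0 keep their sign. Of 38 ranked genes, the dispanin subfamily A member 2b-like unigene alone dropped below 2-fold, at 0.87 relative to beta-actin and 0.74 when summed per description. Of 3390 log2 values of named genes under 6 alternatives, 17 dropped below 2-fold and 17 newly passed it. No changed gene on the lists turned its sign. Only summing per description could have turned one, since the scalings and pseudocounts shift a 2-fold difference too little.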

Other observations

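The KEGG pathway names in the table gave 207 pathways with at least 10 members, disease maps left out, and 154 had a median above 0. The lowest was arginine biosynthesis with -0.46 over 15 unigenes, which shares its enzymes with the urea cycle list. Primary bile acid biosynthesis followed with -0.36 over 12 unigenes, 4 of them above 0, and phenylalanine metabolism with -0.33 over 11. The highest median was that of terpenoid backbone biosynthesis, which feeds sterol synthesis, with 0.24 over 12 unigenes. Steroid biosynthesis itself had a median of 0.04 over 11 unigenes, as did all members, with 1 at least 2-fold lower and none higher. The second highest was N-glycan biosynthesis, which attaches sugar chains to secreted proteins, with 0.22 over 30. In N-glycan biosynthesis 28 of 30 unigenes lay above 0 (93.3%, beside 56.1% of all members), and none passed 2-fold. Apoptosis (multiple species), complement and coagulation cascades, and protein export came next, with medians of 0.19, 0.18 and 0.18. Of these, only complement and coagulation cascades had unigenes past 2-fold, with 3 higher and 1 lower. The TNF signaling pathway, at rank 6 from the highest, had a median of 0.18 over 44 unigenes. In it 2 were at least 2-fold higher, beside 1.43% of all members, and none was lower. These were read after the values were seen, and a shift to beta-actin lowers each by 0.22.

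Members whose description is only uncharacterized or hypothetical made up 13 of the 106 higher and 25 of the 150 lower unigenes. There were 402 such members, and 9.45% of them passed 2-fold, beside 3.45% of all members. An uncharacterized protein (c122206_g3) had FPKM of 17.7 in fresh water, 167 at 5 psu and 215 at 15 psu, a log2 value of 3.59, the third largest rise of all members.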
